A study of Mus musculus with 16 samples.

Results

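Branched-chain amino acid and ketone metabolism was followed through 30 genes in whole kidney of control mice and of mice with a nephron-specific inducible knockout of PGC-1α (NiPKO). The genes were listed by their roles, with earlier results of these data known, and each was read from 1 probe set, the brightest that carries its symbol and no other. All 30 were measured, among 22180 genes in all, and Mut is listed under its present symbol Mmut. RNA from 16 samples was hybridized to Affymetrix mouse whole-transcript arrays, 4 for each of 4 groups, made up of control and NiPKO mice that were fed either chow or a high fat diet (HFD).

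The NiPKO mice carried Pax8-rtTA, the tetO-cre transgene LC1 and floxed PGC-1α alleles, so that doxycycline (DOX) switches on Cre where Pax8 is active. DOX was given to male littermates at 0.2 mg/ml in the drinking water for 2 weeks from 12 weeks of age. The deletion takes place along the tubule but not in the glomerulus, and some recombination also occurs in liver, so it is not limited to the kidney. Chow contained 10 kcal% fat and the HFD (D12492) 60 kcal% fat, and feeding lasted 20 weeks. The labels call the replicates biological, but no label ties a replicate to a particular animal. The p-values below therefore cover the spread among these 16 samples and nothing wider.

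Leucine, isoleucine and valine are first transaminated to their ketoacids, which the branched-chain ketoacid dehydrogenase complex of the mitochondrion oxidizes in its committed, irreversible step. The 3 resulting acyl-CoA esters then run through separate branches. Leucine ends in acetyl-CoA and acetoacetate, while isoleucine and valine both give propionyl-CoA. Propionyl-CoA is carboxylated and then rearranged to succinyl-CoA by an enzyme that needs a cobalamin cofactor. The ketone bodies acetoacetate and 3-hydroxybutyrate are made mainly in liver and burned in mitochondria of other organs, and the kidney, with its densely packed tubular mitochondria, is a well known consumer of them and a site where branched-chain amino acids are broken down.

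The deposited values were normalized between arrays and lie on a log2 scale, as read from their range of 2.07 to 13.81. Array medians lay between 5.35 and 5.4, and any pair of arrays correlated across probe sets at 0.9863 to 0.9917. The 11 proximal tubule markers, which include Lrp2, Cubn and Slc34a1, averaged 12.07 to 12.23 on every array, so the defining markers of the main kidney cell type were present throughout. The Ppargc1a probe set read 9.68, 9.59, 9.56 and 9.60 in chow-fed controls, 9.91, 10.18, 10.05 and 10.09 in chow-fed NiPKO mice, 9.57, 9.52, 9.45 and 9.32 in HFD-fed controls and 9.96, 9.96, 10.07 and 9.96 in HFD-fed NiPKO mice. It was thus higher in the samples labelled NiPKO. Whether it reads the deleted exons is not known here, and if it lies outside them it checks nothing about the labels. NiPKO and control therefore stand for the labels throughout. In bulk tissue, fewer cells of a type and less RNA per cell cannot be told apart.

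The means of the 30 genes over the 16 arrays ran from 6.78 for Bcat1 to 12.04 for Hibadh, a range that holds 8599 genes in all. Levels of different probe sets are not comparable on these arrays, so all differences below are between groups for the same gene. Differences are log2 fold changes from 1 limma model over the 16 arrays, with p-values adjusted by the Benjamini-Hochberg method over all 22180 genes, and a gene was called at an adjusted p under 0.05.

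Across the 30 genes, chow-fed control kidney stood highest. It had the highest mean of the 4 groups for 22 of the 30 genes, or 73.3%, against 22.6% of all genes and 27.9% of the 8599 genes with means in the same range. In no gene of the list was it the lowest. HFD-fed NiPKO kidney was lowest for 10 genes, HFD-fed control for 9 and chow-fed NiPKO for 11. After subtracting each gene's mean, the median of the 30 genes was 0.12, 0.14, 0.10 and 0.08 on the chow-fed control arrays and between -0.09 and 0.04 on the other 12 arrays. All 4 chow-fed control arrays therefore lay above every other array.

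**Figure D1:**
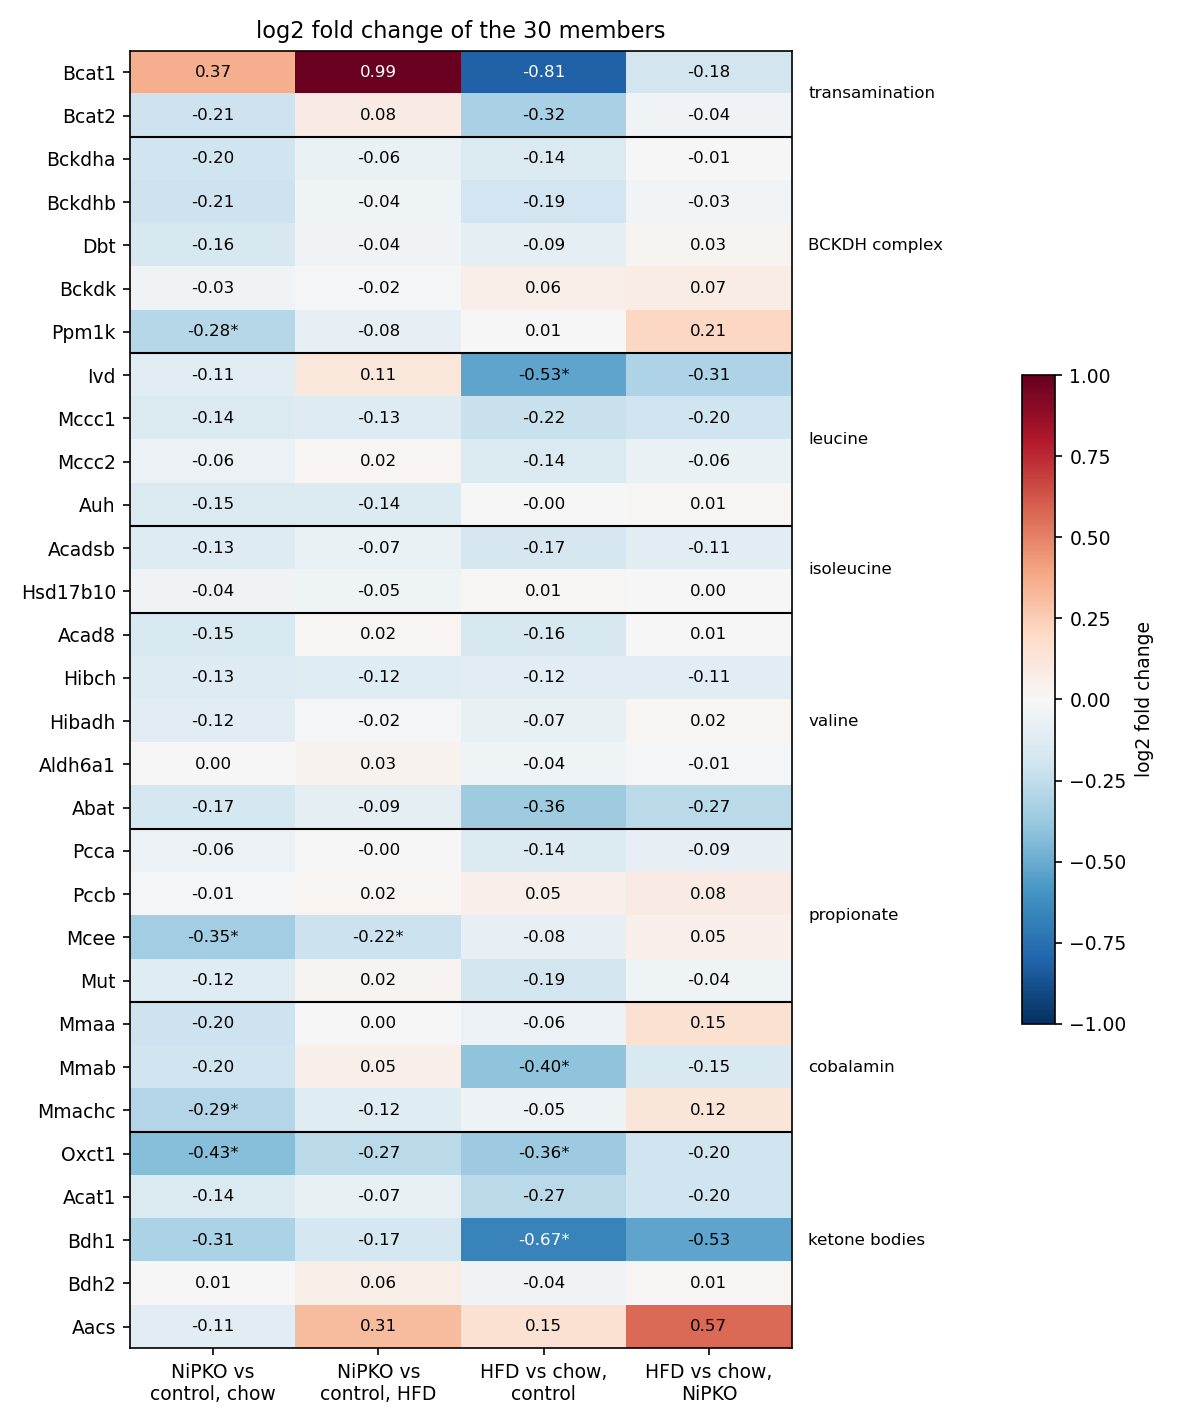
log2 fold change of each of the 30 genes (rows, grouped by role) in the 4 comparisons between pairs of groups (columns), with red for higher, blue for lower and an asterisk for an adjusted p under 0.05 in limma. Most cells of the chow genotype column and of the control diet column are blue, with 27 and 25 of the 30 genes below 0, and both columns use the chow-fed control arrays.

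Promoters of 3 of the genes called below are shown as examples, and no result below rests on them. Mcee and Oxct1 were lower in NiPKO kidney, and Ivd was lower on HFD. The letters are the 250 bases before a RefSeq start site in GRCm38.p6, on the plus strand for all 3, at chr7:64392372-64392621 for Mcee, chr15:4026178-4026427 for Oxct1 and chr2:118861744-118861993 for Ivd. Capitals mark the CCAAT box (CCAAT or its reverse complement ATTGG) and the GC box (GGGCGG or CCGCCC).
Mcee: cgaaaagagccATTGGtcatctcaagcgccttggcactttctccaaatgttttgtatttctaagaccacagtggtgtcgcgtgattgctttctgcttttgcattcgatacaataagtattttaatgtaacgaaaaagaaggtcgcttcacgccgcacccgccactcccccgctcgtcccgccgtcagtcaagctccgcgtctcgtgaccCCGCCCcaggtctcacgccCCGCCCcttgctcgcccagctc
Oxct1: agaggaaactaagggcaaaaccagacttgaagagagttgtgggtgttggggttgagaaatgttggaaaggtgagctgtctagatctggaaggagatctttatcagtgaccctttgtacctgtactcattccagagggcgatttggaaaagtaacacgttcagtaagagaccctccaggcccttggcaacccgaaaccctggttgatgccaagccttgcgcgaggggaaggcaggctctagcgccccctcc
Ivd: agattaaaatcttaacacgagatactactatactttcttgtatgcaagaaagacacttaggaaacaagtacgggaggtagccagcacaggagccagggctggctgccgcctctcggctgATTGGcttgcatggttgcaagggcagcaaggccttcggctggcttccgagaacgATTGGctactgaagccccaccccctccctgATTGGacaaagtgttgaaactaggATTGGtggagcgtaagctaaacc

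Mcee had 1 CCAAT box and 2 GC boxes in this window, Oxct1 had neither, and Ivd had 4 CCAAT boxes, all in the ATTGG orientation. The Ivd window precedes a start site that lies downstream of the annotated gene start, so its last 35 bases, with 1 of the 4 boxes, are inside the gene. Windows were at hand for 26 of the 30 genes, 33 windows in all counting other start sites of the same gene. A CCAAT box was found in 17 of these 33 windows, or 51.5%, against 33.8% of 32851 windows of the same length before any gene, and a GC box in 15, or 45.5%, against 32.7%. The extended half-site AAGGTCA (or TGACCTT), which estrogen-related receptors, nuclear receptors that work with PGC-1α, can bind, was in 0 of the 33 windows and in 4.08% of all windows. These matches are counts of letters in a short window and were not tested as binding sites.

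On chow, 4 of the 30 genes fell in NiPKO kidney and none rose. They were Mcee, Oxct1, Mmachc and Ppm1k, with 1 each from propionate breakdown, ketone body use, cobalamin handling and control of the ketoacid dehydrogenase. The 4 called genes were 13.3% of the list, while 0.974% of all genes were called lower in this comparison (0.302% higher), and 2.21% of the genes in the same range of means. In all, 27 of the 30 differences were below 0 with a median of -0.14, against 47.4% below 0 and a median of 0.01 over all genes. Genes in the same range of means had 59.4% below 0 and a median of -0.02. For 11 of the 30 genes all NiPKO arrays lay under all control arrays, where 4.15% of all genes did so, and none lay wholly above, as 3.29% of all genes did. Among other cells, 6 of 6 endothelial markers were below 0 in the same comparison with a median of -0.10, as were 4 of 4 distal convoluted tubule markers with a median of -0.08 and 3 of 4 thick ascending limb markers with a median of -0.07. None of these was called. Of 7 collecting duct markers, 4 were below 0 and 3 above, with a median of -0.06. Aqp3 was the only one of them called, and was lower (-0.26, adjusted p = 0.012 in limma). The part of all these cells in the result was not tested.

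Mcee encodes methylmalonyl-CoA epimerase, which turns methylmalonyl-CoA into the form that the mutase can use. Its log2 value was 9.83, 9.91, 9.77 and 9.85 in chow-fed controls and 9.45, 9.53, 9.49 and 9.48 in chow-fed NiPKO mice. It was 9.75, 9.75, 9.81 and 9.72 in HFD-fed controls and 9.57, 9.57, 9.52 and 9.49 in HFD-fed NiPKO mice. All 8 NiPKO arrays lay below all 8 control arrays, whatever the diet. Mcee fell by 0.35 on chow (SE 0.05, adjusted p = 0.0013 in limma) and by 0.22 on HFD (SE 0.05, adjusted p = 0.041 in limma). Averaged over both diets the difference was -0.28 (adjusted p = 0.00012 in limma). Mcee was the only gene of the list called in both genotype comparisons. The call on chow held without each of the 16 arrays in turn, whereas that on HFD held only without chow control replicate 2 or 3 or chow NiPKO replicate 1, and the other 13 omissions took its adjusted p up to 0.14 in limma.

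The other enzymes of propionate breakdown were not called. Pcca and Pccb, the subunits of propionyl-CoA carboxylase, differed between genotypes by -0.06 and -0.01 on chow and by 0.00 and 0.02 on HFD. Mut, the cobalamin-dependent methylmalonyl-CoA mutase that acts directly after Mcee, read 10.34, 10.31, 10.29 and 10.30 in chow-fed controls and 10.18, 10.20, 10.18 and 10.21 in chow-fed NiPKO mice. These groups did not overlap, yet the difference of -0.12 was not called (SE 0.04, adjusted p = 0.24 in limma). On HFD, Mut read 10.14, 10.10, 10.07 and 10.19 in controls and 10.18, 10.16, 10.14 and 10.12 in NiPKO mice, and these overlapped. The chow-fed controls were above the other 12 arrays. HFD against chow in controls gave -0.19 (SE 0.04, adjusted p = 0.073 in limma).

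Of the 3 genes of cobalamin handling, Mmachc fell in NiPKO kidney. Mmachc processes incoming cobalamin in the cytosol. It read 7.61, 7.63, 7.60 and 7.69 in chow-fed controls, 7.43, 7.36, 7.28 and 7.30 in chow-fed NiPKO mice, 7.67, 7.45, 7.58 and 7.64 in HFD-fed controls and 7.51, 7.49, 7.35 and 7.50 in HFD-fed NiPKO mice. The chow groups were apart, while on HFD control replicate 2 lay inside the NiPKO range. The difference was -0.29 on chow (SE 0.06, adjusted p = 0.021 in limma) and -0.12 on HFD (SE 0.06, adjusted p = 0.48 in limma), and averaged over both diets it was -0.21 (adjusted p = 0.011 in limma). The chow call was lost without chow control replicate 2 or 4 or chow NiPKO replicate 2, 3 or 4, with an adjusted p of up to 0.07 in limma, and the averaged call was kept without each array. Mmaa, a chaperone that guards the mutase, and Mmab, which makes its adenosylcobalamin cofactor, differed by -0.20 each on chow, uncalled.

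Ppm1k, the mitochondrial phosphatase that activates the branched-chain ketoacid dehydrogenase, read 8.27, 8.37, 8.21 and 8.29 in chow-fed controls and 8.07, 8.11, 7.96 and 7.87 in chow-fed NiPKO mice. On HFD it read 8.38, 8.22, 8.35 and 8.21 in controls and 8.26, 8.19, 8.24 and 8.17 in NiPKO mice. The chow-fed NiPKO arrays were the lowest of the 16, and all 4 lay under every other array. Ppm1k fell by 0.28 on chow (SE 0.06, adjusted p = 0.033 in limma), while the difference on HFD was -0.08 (SE 0.06, adjusted p = 0.70 in limma). The chow call was lost without chow control replicate 1, 2 or 4 or chow NiPKO replicate 3 or 4, with an adjusted p of up to 0.12 in limma. It was also lost after quantile normalization, at 0.058.

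Dld, a shared subunit of the complex that Ppm1k acts on, was not in the list. It was called lower on chow (-0.28, adjusted p = 0.0062 in limma) and is described further below. No listed gene of this complex was called on chow. Bckdha and Bckdhb, the subunits of its decarboxylase, differed by -0.20 (adjusted p = 0.22 in limma) and -0.21 (adjusted p = 0.19 in limma), and Dbt, its acyltransferase core, by -0.16 (adjusted p = 0.23 in limma). Bckdk, the kinase that opposes Ppm1k and switches the complex off, differed by -0.03. On HFD the same 4 genes differed by -0.06 to -0.02. Bckdha, Bckdhb and Dbt each had chow groups that did not overlap, as did Ppm1k. None of these 5 listed genes, Bckdk included, had groups apart on HFD.

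Oxct1 fell the most of the 30 genes in chow-fed NiPKO kidney. Its product, succinyl-CoA:3-ketoacid CoA transferase, activates acetoacetate and is the step that lets a tissue burn ketone bodies. It read 11.22, 11.16, 11.21 and 11.21 in chow-fed controls, 10.74, 10.83, 10.71 and 10.81 in chow-fed NiPKO mice, 10.98, 10.67, 10.76 and 10.95 in HFD-fed controls and 10.70, 10.68, 10.46 and 10.44 in HFD-fed NiPKO mice. The chow-fed controls lay above all other arrays, and the HFD groups overlapped only through control replicate 2. Oxct1 fell by 0.43 on chow (SE 0.08, adjusted p = 0.009 in limma). The difference on HFD was -0.27 (SE 0.08, adjusted p = 0.14 in limma), and over both diets it was -0.35 (adjusted p = 0.0012 in limma). The chow call and the averaged call held without each of the 16 arrays.

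**Figure D2:**
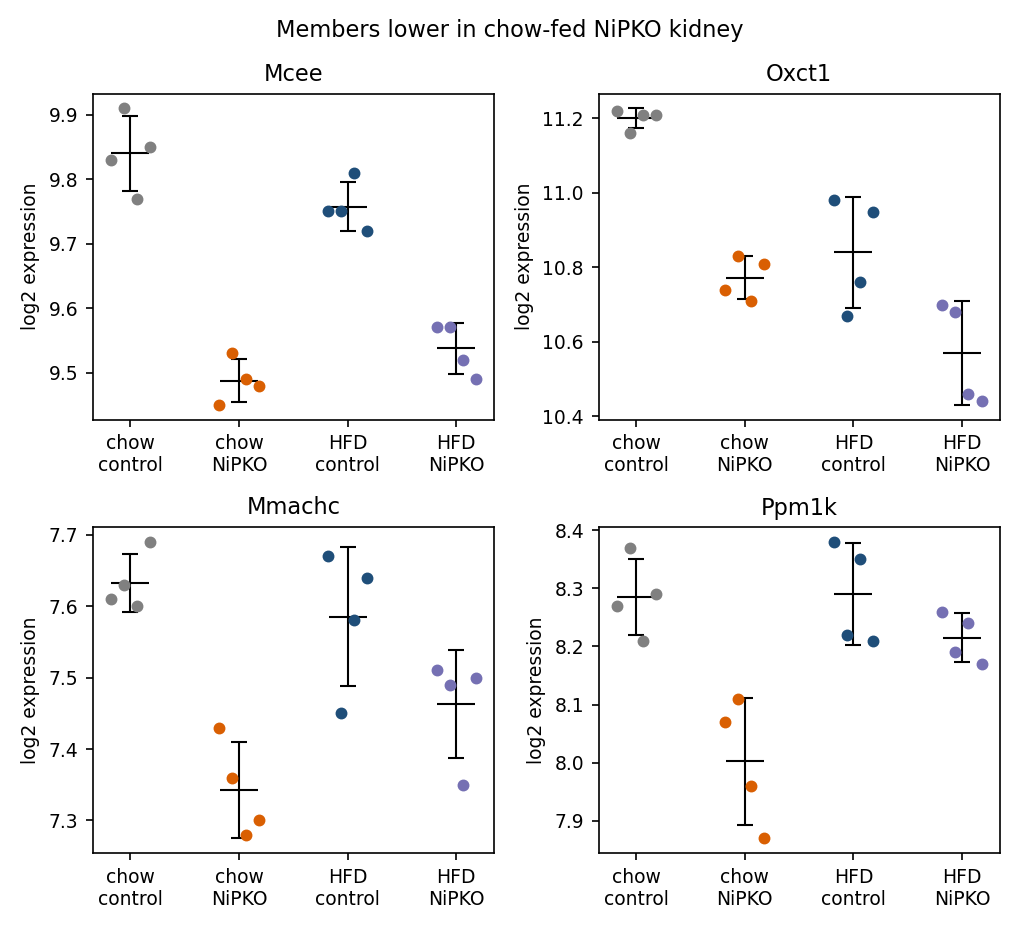
log2 expression of Mcee, Oxct1, Mmachc and Ppm1k on each array (points), with the mean (bar) and SD (whiskers) of the 4 arrays of each group. The axes do not start at 0. All 8 NiPKO arrays of Mcee lie under all 8 control arrays, while Oxct1 is highest in the chow-fed controls, at 11.16 to 11.22, and Ppm1k lowest in chow-fed NiPKO mice, at 7.87 to 8.11.

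The remaining ketone body genes did not pass the test between genotypes. Bdh1, the mitochondrial enzyme that interconverts 3-hydroxybutyrate and acetoacetate, differed by -0.31 on chow (SE 0.14, adjusted p = 0.38 in limma), and Acat1, the thiolase that splits acetoacetyl-CoA and also closes the isoleucine branch, by -0.14 (adjusted p = 0.46 in limma). Bdh2, a cytosolic hydroxybutyrate dehydrogenase, differed by 0.01 on chow and 0.06 on HFD. None of the 4 leucine genes, 2 isoleucine genes and 5 valine genes was called on chow, where their differences ran from -0.17 for Abat to 0.00 for Aldh6a1.

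On HFD, Mcee alone was called between genotypes, or 3.33% of the list against 0.595% of all genes called lower. None of the list was called higher, as 0.23% of all genes were. The median difference of the 30 genes was -0.03, with 18 below 0 and 12 above. Over all genes 49.4% were below 0 with a median of 0. Genes in the same range of means had 37.7% below 0 and a median of 0.03. The groups were apart for 3 genes that were lower and for 1 that was higher, while 3.38% of all genes were apart downward and 3.5% upward. At the thresholds the study's methods give for these arrays, an unadjusted p under 0.05 and a fold over 1.2, Oxct1 was lower and Bcat1 and Aacs were higher in NiPKO kidney, where 1.79% of all genes passed downward and 1.93% upward.

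Bcat1 was the gene of the list that rose in NiPKO kidney. It encodes the cytosolic branched-chain aminotransferase, which is best known from brain and growing cells, while Bcat2 encodes the mitochondrial form of most other tissues. Bcat1 read 7.00, 6.62, 7.14 and 6.62 in chow-fed controls, 7.67, 7.36, 6.78 and 7.03 in chow-fed NiPKO mice, 6.20, 5.72, 5.56 and 6.67 in HFD-fed controls and 7.11, 7.05, 6.61 and 7.35 in HFD-fed NiPKO mice. The HFD-fed controls were lowest, and only their replicate 4 reached into the range of another group. The difference between genotypes was 0.37 on chow (SE 0.23, adjusted p = 0.57 in limma) and 0.99 on HFD (SE 0.23, adjusted p = 0.063 in limma). Averaged over both diets Bcat1 rose by 0.68 in NiPKO kidney, or 1.6-fold (SE 0.17, adjusted p = 0.035 in limma), where 0.852% of all genes were called higher. HFD against chow gave -0.81 for Bcat1 in controls and -0.18 in NiPKO mice, neither called. Its group means were 6.84 in chow-fed controls, 7.21 in chow-fed NiPKO mice, 6.04 in HFD-fed controls and 7.03 in HFD-fed NiPKO mice.

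The call for Bcat1 lay near the threshold. Without HFD control replicate 4, the difference on HFD was called, at an adjusted p of 0.022 in limma. The averaged call was lost in 9 of the 16 omissions, with an adjusted p of up to 0.081 in limma, and kept without chow control replicate 1 or 3, chow NiPKO replicate 3 or 4, HFD control replicate 1 or 4 or HFD NiPKO replicate 3. Bcat2 read 8.25 ± 0.19 (SD, n = 4) in chow-fed controls, 8.05 ± 0.09 in chow-fed NiPKO mice, 7.93 ± 0.16 in HFD-fed controls and 8.01 ± 0.05 in HFD-fed NiPKO mice, and was called in no comparison.

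Marker levels of other cells are given beside those of Bcat1 and Aacs. In HFD-fed NiPKO against HFD-fed control kidney, 7 of 7 leukocyte markers were above 0 with a median of 0.22, and 6 of 6 adipocyte markers with a median of 0.30, none of them called. The mean of the leukocyte markers ran from 6.20 to 6.35 in chow-fed controls, 6.07 to 6.48 in chow-fed NiPKO mice, 6.01 to 6.52 in HFD-fed controls and 6.39 to 6.59 in HFD-fed NiPKO mice. That of the adipocyte markers ran from 5.85 to 6.08, 5.84 to 5.95, 5.78 to 6.26 and 6.16 to 6.68 in the same order. Adiponectin (Adipoq), the defining adipocyte marker, had group means of 4.16 to 4.45. The part of these cells in the levels of Bcat1 and Aacs was not tested.

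Over both diets, 4 genes fell and 1 rose in NiPKO kidney. Mcee, Oxct1, Mmachc and Ppm1k made up the 13.3% called lower, against 1.83% of all genes and 4.02% of those in the same range of means. Ppm1k was the weakest of them at -0.18 (SE 0.04, adjusted p = 0.036 in limma), and its call was lost in 11 of the 16 omissions, with an adjusted p of up to 0.08 in limma, being kept without chow control replicate 3, chow NiPKO replicate 1 or 2 or HFD control replicate 2 or 4.

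HFD against chow in control mice lowered 4 of the 30 genes and raised none. They were Oxct1, Bdh1, Ivd and Mmab, or 13.3% of the list, where 0.388% of all genes were called lower (0.176% higher), and 0.814% of those in the same range of means. The median difference was -0.14 with 25 of 30 below 0, against 46.7% of all genes and 57.3% of those in the same range of means, and for 9 genes all HFD arrays lay under all chow arrays, against 3.83% of all genes, while none lay wholly above, against 3.3%. At the methods' thresholds 8 genes were lower, Bcat1 (-0.81) and Bcat2 (-0.32) among them, where 2.34% of all genes were. This comparison uses the same chow-fed control arrays as the genotype comparison on chow, so the direction of the list in one is not independent of that in the other.

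Bdh1 fell by 0.67 on HFD in controls. It read 8.50, 8.77, 9.01 and 8.85 in chow-fed controls and 8.23, 7.89, 7.90 and 8.44 in HFD-fed controls. In NiPKO mice it read 8.30, 8.56, 8.71 and 8.32 on chow and 8.16, 8.10, 7.76 and 7.75 on HFD. In each genotype every HFD array lay under every chow array. The adjusted p was 0.047 in controls (SE 0.14, limma) and 0.11 in NiPKO mice, where the difference was -0.53. Averaged over both genotypes, Bdh1 fell by 0.60 (SE 0.10, adjusted p = 0.0045 in limma), and this call held without each of the 16 arrays.

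Ivd, isovaleryl-CoA dehydrogenase, catalyzes the step of the leucine branch that follows the ketoacid dehydrogenase. It read 10.80, 10.87, 10.54 and 10.43 in chow-fed controls, 10.54, 10.67, 10.40 and 10.60 in chow-fed NiPKO mice, 10.45, 10.08, 9.90 and 10.10 in HFD-fed controls and 10.29, 10.25, 10.29 and 10.14 in HFD-fed NiPKO mice. Of the HFD arrays, only control replicate 1 reached into the chow range. Ivd fell by 0.53 in controls (SE 0.11, adjusted p = 0.044 in limma), and the difference in NiPKO mice was -0.31 (adjusted p = 0.23 in limma). Averaged over both genotypes it fell by 0.42 (SE 0.08, adjusted p = 0.0088 in limma), held without each array, while its averaged difference between genotypes was 0.00.

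Mmab, the adenosyltransferase, read 7.79, 7.79, 7.59 and 7.72 in chow-fed controls, 7.64, 7.56, 7.36 and 7.53 in chow-fed NiPKO mice, 7.60, 7.29, 7.19 and 7.21 in HFD-fed controls and 7.46, 7.33, 7.40 and 7.30 in HFD-fed NiPKO mice. HFD control replicate 1 lay inside the range of the chow-fed controls, and the NiPKO groups overlapped. Mmab fell by 0.40 in controls (SE 0.09, adjusted p = 0.048 in limma) and by 0.27 over both genotypes (SE 0.06, adjusted p = 0.021 in limma). The averaged call was lost only without HFD control replicate 3, at an adjusted p of 0.051 in limma. The difference of Oxct1 in controls was -0.36 (SE 0.08, adjusted p = 0.043 in limma).

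The 4 calls in controls lay near the threshold. Oxct1 was called in 6 of the 16 omissions (without HFD control replicate 1 or 4 or any HFD NiPKO array), Bdh1 in 4 (chow control replicate 1, chow NiPKO replicate 3, HFD control replicate 4 and HFD NiPKO replicate 1), Ivd in 2 (chow control replicate 4 and HFD control replicate 1) and Mmab in 2 (chow NiPKO replicate 3 and HFD control replicate 1), and their adjusted p reached 0.15 in limma. In controls, 6 of 7 collecting duct markers were also below 0 on HFD with a median of -0.17, of which Aqp3 was called. All 4 thick ascending limb markers were below 0 with a median of -0.06, none called, and the part of these cells in the result was not tested.

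In NiPKO mice, HFD against chow called none of the 30 genes after adjustment, with 0.135% of all genes called lower and 0.126% higher. At an unadjusted p under 0.05 in limma, 6 genes were lower and 2 higher, against 5.64% and 7.73% of all genes, and at the methods' thresholds 3 were lower (Bdh1, Ivd and Abat) and 1 higher (Aacs), where 2.21% and 2.26% of all genes passed. The median difference was -0.02, with 17 genes below 0 and 13 above, against 49% below 0 and a median of 0 over all genes. Genes in the same range of means had 37.6% below 0 and a median of 0.03. The groups were apart downward for 6 genes and upward for 3, against 3.21% and 5.03% of all genes.

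Aacs rose on HFD, against the run of the ketone body genes. It encodes acetoacetyl-CoA synthetase, a cytosolic enzyme that feeds acetoacetate into sterol and fatty acid synthesis. Aacs read 8.47, 8.44, 8.92 and 8.66 in chow-fed controls, 8.79, 8.18, 8.62 and 8.48 in chow-fed NiPKO mice, 8.58, 8.69, 8.96 and 8.85 in HFD-fed controls and 9.27, 9.05, 8.99 and 9.04 in HFD-fed NiPKO mice. The HFD-fed NiPKO arrays were above the other 12. Averaged over both genotypes Aacs rose by 0.36 on HFD (SE 0.09, adjusted p = 0.042 in limma), where 1.43% of all genes were called higher. The difference was 0.15 in controls (adjusted p = 0.68 in limma) and 0.57 in NiPKO mice (adjusted p = 0.073 in limma).

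The averaged call of Aacs held only without chow control replicate 3, chow NiPKO replicate 1 or HFD control replicate 1, with an adjusted p of up to 0.092 in limma otherwise. Centring each array on its median took it to 0.055. Without chow NiPKO replicate 1 the difference within NiPKO mice was called, at 0.04. The adipocyte markers were highest on the same HFD NiPKO replicate 1 as Aacs, at 6.68. The proximal tubule and distal convoluted tubule markers were also highest on that array, at 12.23 and 9.85. On HFD in NiPKO mice, 5 of 6 adipocyte markers were above 0, with a median of 0.45. The part of these cells in the level of Aacs was not tested.

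**Figure D3:**
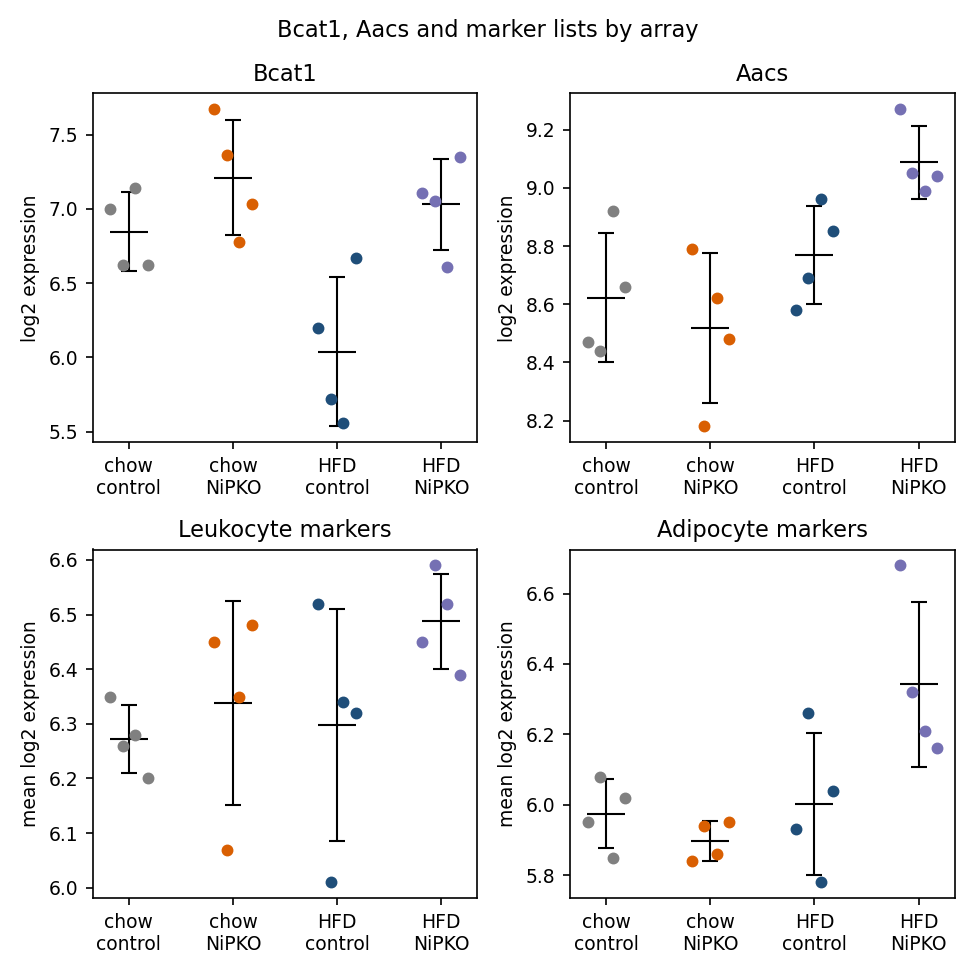
log2 expression of Bcat1 and Aacs (upper panels) and the mean of the leukocyte and adipocyte marker lists (lower panels) on each array (points), with mean (bar) and SD (whiskers) of 4 arrays per group. The axes do not start at 0. Bcat1 is lowest in HFD-fed controls, at 5.56 to 6.67, and Aacs highest in HFD-fed NiPKO mice, at 8.99 to 9.27, where the adipocyte markers also reach 6.68.

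Over both genotypes, HFD lowered 7 of the 30 genes and raised 1, Aacs. The 7 genes, Bdh1, Ivd, Oxct1, Abat, Mmab, Acat1 and Mccc1, were 23.3% of the list, while 1.71% of all genes were called lower and 3.58% of those in the same range of means. They included 3 of the 5 ketone body genes and 2 of the 4 leucine genes, and none of the 5 ketoacid dehydrogenase genes. Oxct1 fell by 0.28 (SE 0.05, adjusted p = 0.0091 in limma) and was the only gene called in both averaged comparisons. The calls of Bdh1, Ivd, Oxct1 and Abat held without each of the 16 arrays.

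Abat, a transaminase of the mitochondrion known for degrading GABA and grouped here with valine for its work on the semialdehydes of that branch, read 11.00, 10.99, 10.83 and 11.00 in chow-fed controls and 10.70, 10.82, 10.82 and 10.80 in chow-fed NiPKO mice. On HFD it read 10.81, 10.57, 10.38 and 10.65 in controls and 10.69, 10.57, 10.40 and 10.39 in NiPKO mice. Within each genotype every HFD array lay under every chow array. Abat fell by 0.31 over both genotypes (SE 0.06, adjusted p = 0.01 in limma). A dimmer probe set of Abat, with a mean of 5.73, ran the same way, with -0.48 in controls and -0.22 in NiPKO mice.

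Acat1 read 11.92, 12.01, 12.10 and 12.06 in chow-fed controls, 11.84, 11.94, 11.92 and 11.82 in chow-fed NiPKO mice, 11.69, 11.73, 11.66 and 11.94 in HFD-fed controls and 11.86, 11.69, 11.57 and 11.60 in HFD-fed NiPKO mice. Each genotype had 1 HFD array within its chow range, control replicate 4 and NiPKO replicate 1. Acat1 fell by 0.23 over both genotypes (SE 0.05, adjusted p = 0.024 in limma), and this call was lost without chow control replicate 3 or 4, chow NiPKO replicate 2 or 3, HFD control replicate 3 or HFD NiPKO replicate 3 or 4, with an adjusted p of up to 0.057 in limma.

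Mccc1, the biotin-bearing subunit of methylcrotonyl-CoA carboxylase in the leucine branch, read 9.80, 9.88, 9.86 and 9.84 in chow-fed controls, 9.52, 9.67, 9.83 and 9.78 in chow-fed NiPKO mice, 9.60, 9.65, 9.51 and 9.73 in HFD-fed controls and 9.56, 9.58, 9.45 and 9.40 in HFD-fed NiPKO mice. The control groups were apart, and in NiPKO mice chow replicate 1 lay within the HFD range. Mccc1 fell by 0.21 (SE 0.05, adjusted p = 0.028 in limma), a call that was lost in 9 of the 16 omissions, with an adjusted p of up to 0.065 in limma, and kept without chow control replicate 1, chow NiPKO replicate 1 or 2, HFD control replicate 2 or 4 or HFD NiPKO replicate 1 or 2. Its partner subunit Mccc2 differed by -0.10 (adjusted p = 0.22 in limma) and Auh, the hydratase that follows, by 0.00.

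**Figure D4:**
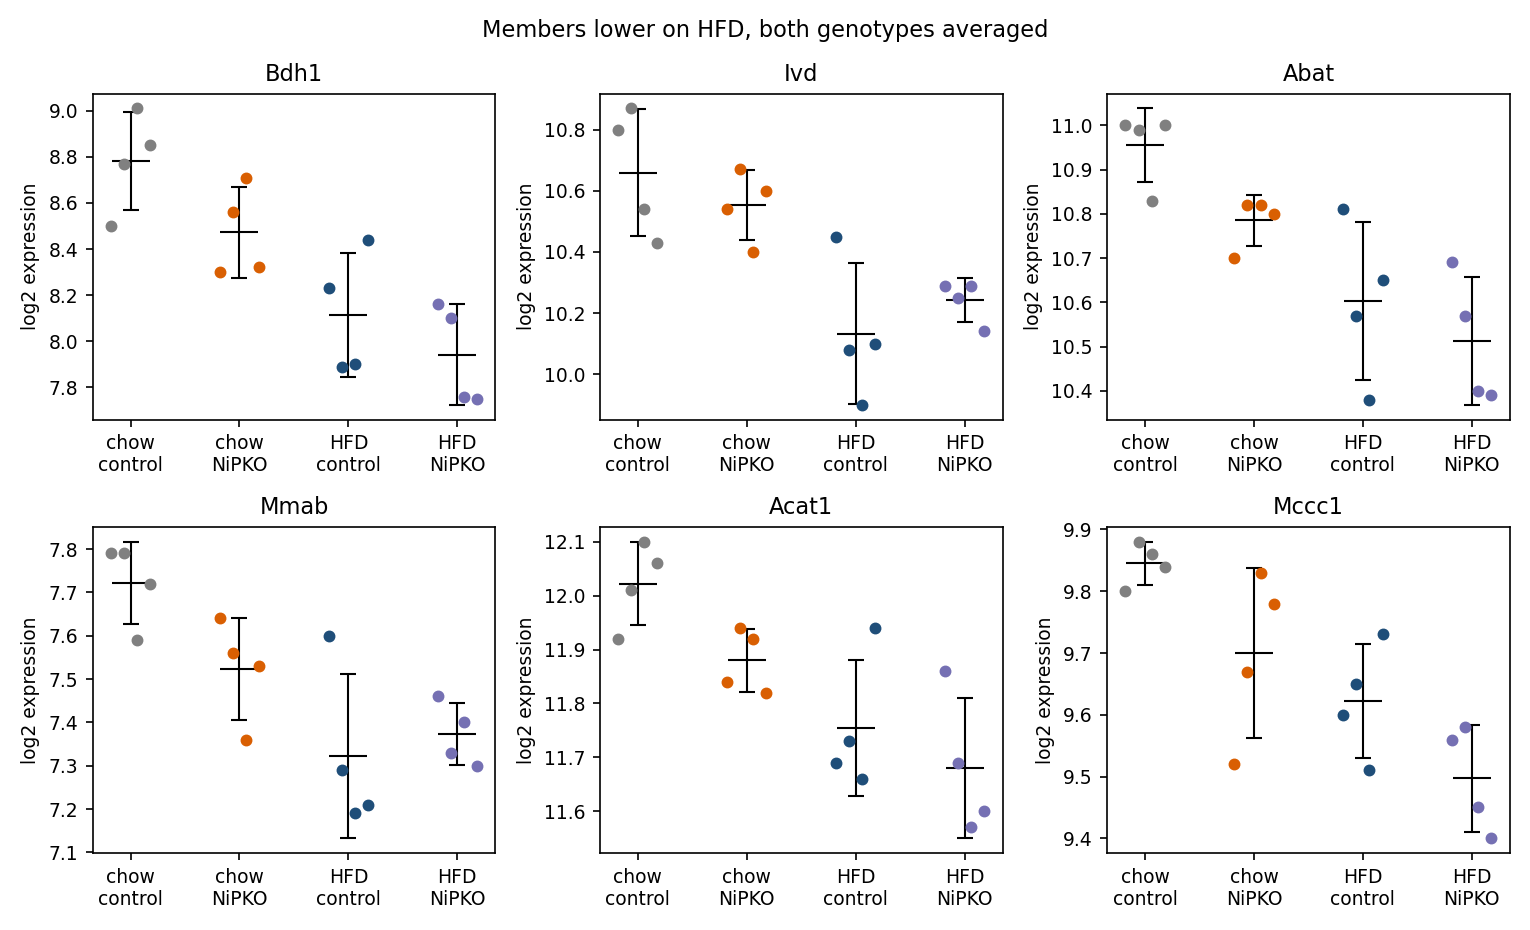
log2 expression of Bdh1, Ivd, Abat, Mmab, Acat1 and Mccc1 on each array (points), with mean (bar) and SD (whiskers) of the 4 arrays of each group. The axes do not start at 0. The HFD means lie below the chow means of the same genotype in all 6 panels. The gap is widest for Bdh1, with -0.67 in controls and -0.53 in NiPKO mice. Single arrays of the diet groups overlap in at least 1 genotype for Ivd, Mmab, Acat1 and Mccc1.

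The other genes of the isoleucine and valine branches were called in no comparison. Acadsb, the short and branched-chain acyl-CoA dehydrogenase of isoleucine, came nearest, with -0.14 on HFD over both genotypes (adjusted p = 0.056 in limma). Hsd17b10, the dehydrogenase that follows, stayed between group means of 8.72 and 8.77. In the valine branch, Acad8, its acyl-CoA dehydrogenase, ran from 8.69 to 8.86, Hibch, its hydrolase, from 8.04 to 8.28, Hibadh, which oxidizes hydroxyisobutyrate, from 11.99 to 12.11, and Aldh6a1, which oxidizes the semialdehyde, from 11.97 to 12.01 in group means. In all, 18 of the 30 genes were called in none of the comparisons and 12 in at least 1. In any single comparison at most 1.83% of all genes were called lower and 1.43% higher. The share of all genes called in at least 1 comparison was not counted.

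The interaction asks whether the genotype difference on HFD differed from that on chow. After adjustment 0 of the 30 genes were called by limma, as were 0% of all genes. At an unadjusted p under 0.05 in limma, 4 genes were above 0 and none below, where 3.64% of all genes were above 0 and 4.6% below 0 at that level. They were Mut at 0.15 (95% confidence interval 0.01 to 0.28), Ppm1k at 0.20 (0.02 to 0.39), Aacs at 0.42 (0.03 to 0.80) and Bcat2 at 0.29 (0.01 to 0.56), with adjusted p of 0.57 to 0.58 in limma. The estimate was above 0 for 29 of the 30 genes, with a median of 0.13, against a median of 0.00 over all genes and of 0.05 over the genes in the same range of means, 30.4% of which were below 0. After quantile normalization 24 of the 30 were above 0. The 30 estimates come from the same 16 arrays and are not independent of each other.

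**Figure D5:**
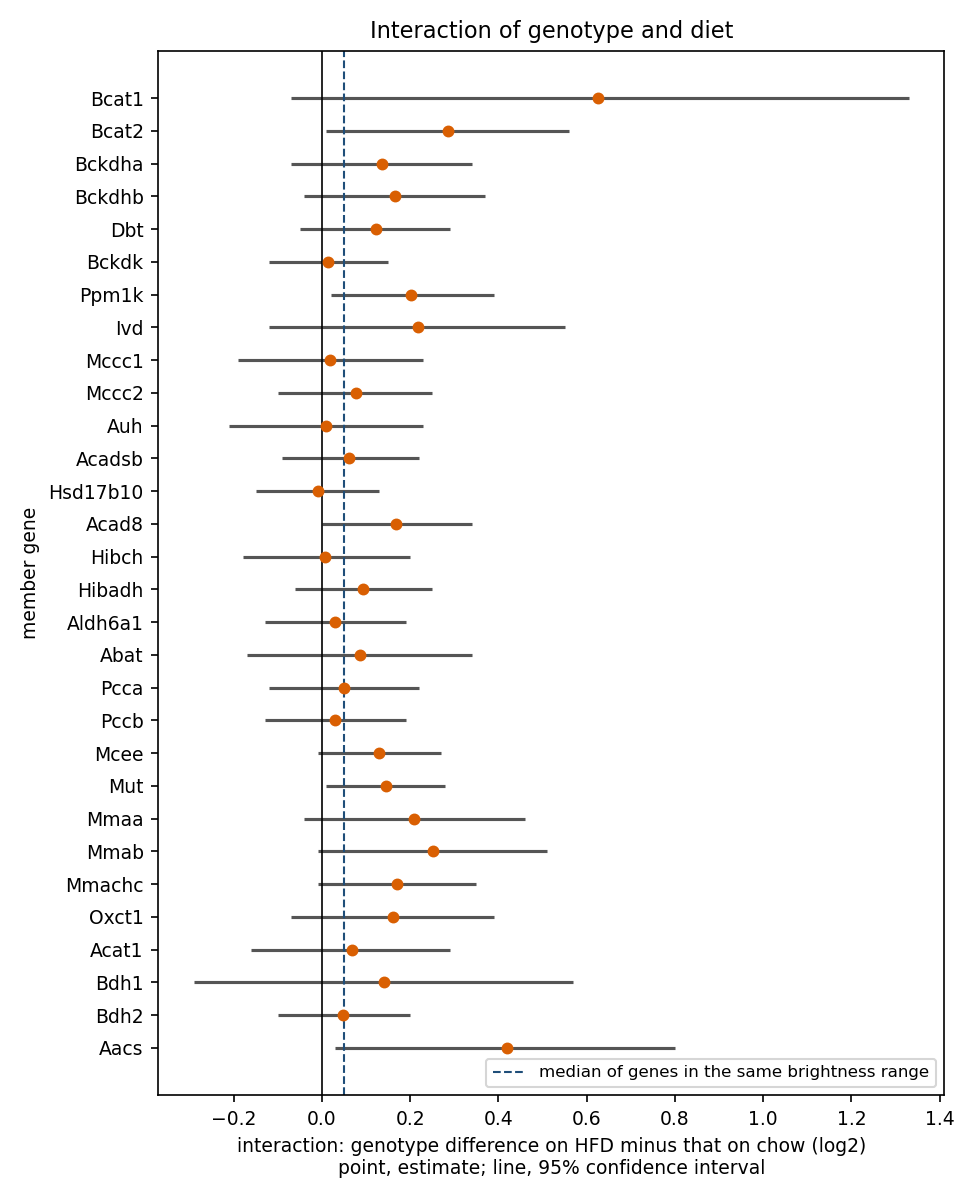
Interaction of genotype and diet for each of the 30 genes (points), as the genotype difference on HFD minus that on chow on the log2 scale, with 95% confidence intervals (lines) and the median of the 8599 genes in the same range of means (dashed). All points but that of Hsd17b10 lie above 0, from 0.01 to 0.63, and the intervals of 4 genes do not reach 0.

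Other genes of these pathways were taken from a list of 39, of which 36 were used here. In chow-fed NiPKO kidney 5 of the 36 fell and none rose, where 0.974% of all genes were called lower and 0.302% higher. On HFD 2 fell and none rose, against 0.595% and 0.23% of all genes, and over both diets 8 fell and 2 rose, against 1.83% and 0.852%. Dld, the dehydrogenase subunit that the branched-chain ketoacid complex shares with pyruvate dehydrogenase, read 10.79, 10.80, 10.67 and 10.81 in chow-fed controls, 10.47, 10.47, 10.49 and 10.53 in chow-fed NiPKO mice, 10.71, 10.71, 10.64 and 10.70 in HFD-fed controls and 10.43, 10.46, 10.44 and 10.40 in HFD-fed NiPKO mice. All NiPKO arrays lay below all control arrays, as they did for Mcee. Dld fell by 0.28 on chow (adjusted p = 0.0062 in limma) and by 0.26 on HFD (adjusted p = 0.018 in limma). The HFD call was lost without HFD control replicate 1 or 2 or HFD NiPKO replicate 1 or 4, with an adjusted p of up to 0.057 in limma.

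Downstream of the mutase, the subunits of succinyl-CoA ligase fell over both diets, Sucla2 by 0.22 (adjusted p = 0.0016 in limma), Suclg1 by 0.21 (adjusted p = 0.01 in limma) and Suclg2 by 0.16 (adjusted p = 0.043 in limma). Suclg2 was called in 2 of the 16 omissions, without chow NiPKO replicate 3 or 4. Echs1, the enoyl-CoA hydratase of the isoleucine and valine branches, fell by 0.22 (adjusted p = 0.014 in limma). Etfa, Etfdh and Acaa2, which also serve fatty acid oxidation, were the others that fell. The call of Acaa2 (-0.25, adjusted p = 0.035 in limma) was lost in 9 of the 16 omissions, with an adjusted p of up to 0.081 in limma. Those that rose were Abcd4, a lysosomal cobalamin transporter, at 0.30 (adjusted p = 0.004 in limma), and Agxt2, a mitochondrial aminotransferase, at 0.24 (adjusted p = 0.03 in limma), the latter called in 8 of the 16 omissions.

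On HFD, Klf15 was the other gene that fell the most. It encodes a transcription factor known to drive branched-chain amino acid breakdown in mouse muscle and heart. Klf15 read 8.75, 8.56, 8.59 and 8.60 in chow-fed controls, 7.92, 8.56, 8.62 and 8.61 in chow-fed NiPKO mice, 8.06, 7.85, 7.68 and 7.92 in HFD-fed controls and 8.20, 7.75, 7.94 and 7.77 in HFD-fed NiPKO mice. All HFD arrays were below all chow arrays but chow NiPKO replicate 1. Klf15 fell by 0.75 in controls (adjusted p = 0.025 in limma) and by 0.63 over both genotypes (adjusted p = 0.0027 in limma), and the averaged call held without each array. In controls the call was lost when any 1 of the 4 chow control arrays, or HFD control replicate 2 or 3, was left out, with an adjusted p of up to 0.1 in limma.

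Over both genotypes on HFD, Echs1 also fell, by 0.23 (adjusted p = 0.012 in limma), and 3 of the 36 rose. With Klf15 that made 2 of the 36 called lower and 3 higher, where 1.71% and 1.43% of all genes were. Acaa2, a mitochondrial thiolase, rose by 0.33 (adjusted p = 0.0081 in limma), Pcx, the biotin enzyme pyruvate carboxylase, by 0.22 (adjusted p = 0.012 in limma) and Slc16a6, a carrier that exports ketone bodies from liver cells in zebrafish, by 0.44 (adjusted p = 0.028 in limma), the last called in 7 of the 16 omissions. Slc25a44, the mitochondrial carrier of branched-chain amino acids, differed by at most 0.03 in size between any of the compared groups. Slc16a1, a monocarboxylate transporter that also carries ketone bodies, had adjusted p-values of 0.48 and above in limma.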

How the data were processed

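Total RNA of whole kidney was hybridized to Affymetrix Mouse Gene 2.0 ST arrays, 16 in all. The deposited values are log2 expression of 41345 probe sets, normalized by the authors with Partek (no version named). Their background correction and their normalization method are not stated in the labels or in the paper, and the log2 scale was inferred from the range of the values. How far a probe set rose above background is unknown.

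In the platform annotation 23521 probe sets have 1 symbol. Those with several (1820) or none listed (16004) were set aside, which left 22180 genes, and for the 1082 genes with several probe sets the brightest was kept. All remaining probe sets entered the fit, dim ones included. RefSeq (GRCm38.p6) matched 23328 by gene identifier and supplied the promoter windows.

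limma 3.58.1 (R 4.3.3) was run with lmFit, contrasts.fit and eBayes on 1 mean per group. The 7 contrasts were genotype on each diet, diet in each genotype, the average of each pair, and the interaction. The script was checked on simulated data. Alternatives varied the call rule (thresholds or t-test of the methods), the arrays fitted, the scaling, the genes kept, the variance prior, the weighting, the probe set summary and the replicate block, and left out each array in turn.

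Values on every array are given for Ppargc1a, for genes of the list called in any comparison and for the 3 with the smallest p in each. Dld and Klf15 were named in the same rule, and their array values were added after they were seen. The genes and all lists were chosen with earlier results of these data known.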

Additional observations from a re-analysis of the deposited data

Results flagged for a closer look

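Some single arrays stood apart within their group of 4, in that the gap from 1 array to the nearest other, relative to the group's whole range, passed Dixon's critical value at the 95% level. This was so in 9 of the 120 groups tested (30 genes in 4 groups), or 7.5%, where chance gives about 1 in 20. The arrays were chow NiPKO replicate 1 for Auh at 7.21, Abat at 10.70 and Bdh2 at 10.41, all below the rest of their group. Chow control replicate 3 was low for Abat at 10.83 and chow control replicate 2 for Oxct1 at 11.16. HFD NiPKO replicate 4 was low for Bckdhb at 9.28, replicate 3 for Mmachc at 7.35, and replicate 1 was high for Mmaa at 7.82. HFD control replicate 3 was high for Hsd17b10 at 8.84. The gaps ran from 0.05 for Oxct1 to 0.25 for Auh on the log2 scale.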

How the results depend on the processing

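No called value changed its direction under any alternative. On chow, 4 genes were called between genotypes, and 2 (Mcee and Oxct1) when the fit was limited to those 8 arrays or used the methods' t-test. Of all 22180 genes, 283 were called in the main fit, 75 in the fit of 8 arrays and 47 by the t-test. On HFD, 1 gene was called, against 3 at the methods' thresholds, 2 among the brighter genes and with array weights, and 0 in the fit of 8 arrays and by the t-test. The main fit called 183 of all genes, array weights 209, the fit of 8 arrays 43 and the t-test 8. Among the 11090 brighter genes 324 were called. For HFD in controls, 4 were called, against 8 at the methods' thresholds, 2 after quantile normalization, and 0 in the fit of 8 arrays and by the t-test. All-gene calls were 125 in the main fit, 124 after quantile normalization, 14 in the fit of 8 arrays and 0 by the t-test. For HFD in NiPKO mice none was called, against 4 at the methods' thresholds and 1 among the brighter genes, with the trend and robust prior and with array weights. There, all-gene calls went from 58 to 308 among the brighter genes, 189 with the trend and robust prior and 125 with array weights. Averaged over diets, 5 were called, against 3 at the methods' thresholds, and for the interaction 0 against 2. At those thresholds 1.22% of all genes were lower and 1.2% higher averaged over diets. For the interaction 3.71% were below 0 and 2.04% above. The causes of these shifts were not tested. Leaving out each array gave 2 to 4, 0 to 1, 0 to 5 and 0 to 1 called genes in the comparisons of pairs of groups, 3 to 5 and 4 to 9 in the genotype and diet averages and 0 in the interaction. In the same order, all-gene calls ran 147 to 283, 57 to 169, 24 to 219 and 7 to 105 in the pairs of groups. They ran 465 to 564 and 416 to 762 in the averages and 0 to 2 in the interaction.

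The labels number the replicates 1 to 4 in each group without saying that a number marks a shared animal or day. Same-numbered arrays deviated together with r from -0.11 to 0.17 (median 0.015, 24 pairs). The best match had the same number in 7 of 24 comparisons of the arrays of 1 group with those of another. Chance gives about 1 in 4. No pairing by number was seen, but these values cannot exclude a weak one. With the replicate block, 4, 0, 2 and 0 genes were called in the comparisons of pairs of groups, 5 and 6 in the averages and 0 in the interaction. Among all genes the block left 224, 101, 66 and 33 called in the pairs, 529 and 523 in the averages and 0 in the interaction. The t-test and the fit of 8 arrays were not run for the averages and the interaction. Of the 36 other pathway genes, 5, 2, 3 and 0 were called in the comparisons of pairs of groups, with 2 to 6, 1 to 3, 0 to 3 and 0 to 3 when each array was left out and 0 to 8 under the other alternatives, all of these chosen after seeing the data. For HFD in controls 2 were lower and 1 higher, where 0.388% and 0.176% of all genes were. Over all genes the other alternatives called 0 to 436 in the comparisons of pairs of groups.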
